A study of Mus musculus with 6 samples.

Results

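The genes described here encode core proteins of the basement membrane, in mouse embryonic stem cells that lack Mettl5 and in wild-type cells. They were chosen by name from the deposited table, with earlier results of these data known. Of the 9093 genes in the table, 10 are members. Among them are the laminin chains Lama1, Lamb1 and Lamc1 and the collagen chains Col4a1, Col4a2 and Col18a1. The others are the nidogens Nid1 and Nid2, the perlecan gene Hspg2, and Sparc. Ribosome footprints (fragments of mRNA covered by ribosomes) were sequenced in 2 Mettl5 KO and 2 WT libraries, and input mRNA in 1 library per genotype. The study asked about the part of the 18S ribosomal RNA m6A methyltransferase METTL5 in differentiation of these cells. KO cells had been made by CRISPR/Cas9 editing, and the labels do not say how many clones were used or whether the 2 libraries of a genotype came from separate cultures, so p-values measure a spread that may be technical. All cells derived from 129Sv females crossed to C57BL/6 BVSC males and grew in N2B27 medium with leukemia inhibitory factor (1000 U/ml), PD0325901 (1 µM) and CHIR99021 (3 µM), conditions that hold stem cells in the naive pluripotent state. Cells received cycloheximide before lysis to hold ribosomes in place. The naive markers given below had reads in every footprint library. Every gene analysed here had at least 11 reads in each of these libraries, so this presence does not test the labelled cell type.

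The basement membrane is a thin sheet of extracellular matrix beneath epithelia. Laminin heterotrimers of an alpha, a beta and a gamma chain polymerise on the cell surface and bind integrins and dystroglycan, type IV collagen forms a covalent network, and nidogens and perlecan link the networks. In the early mouse embryo this sheet separates the epiblast, from which stem cells are derived, from the primitive endoderm, and embryonic stem cells themselves make and secrete laminin and type IV collagen. All of these proteins are made on ribosomes at the endoplasmic reticulum and leave the cell through the secretory pathway.

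Promoter sequences are shown for Lamb1, Col4a2 and Col18a1, which are among the 4 genes with the largest falls. Those of Hspg2 and Sparc, with smaller falls, are shown beside them. Input mRNA was lower in KO for all 10 members, so it does not set these genes apart. RefSeq windows (GRCm38.p6) were found for 7 of the 10 members and searched over the 250 bases before the start on both strands. The motifs were the GC box, GGGCGG or CCGCCC, the CCAAT box, CCAAT or ATTGG, and the TATA box, TATAAA or TTTATA, no 2 of which overlapped in the stretches shown. Matches are in capitals, and for Lamb1 and Col4a2 a stretch of 30 bases with some of the matches is printed. The stretch of Col4a2 holds the CCAAT box that lies 27 bases before its start, and it also lies within the annotated span of Col4a1, downstream of the start of that gene. The stretch of Lamb1 lies in the annotated span of Lamb1, which begins at 31265146, but before the start used for its window, 31265293. It may thus be transcribed.
Col4a2 (chr8:11312769-11312798, plus strand): ctccCCAATttgttggcgctgccccctccc
Lamb1 (chr12:31265203-31265232, plus strand): tgtcctCCGCCCcctCCGCCCccgctctcc
Col18a1 (chr10:77166531-77166780, minus strand): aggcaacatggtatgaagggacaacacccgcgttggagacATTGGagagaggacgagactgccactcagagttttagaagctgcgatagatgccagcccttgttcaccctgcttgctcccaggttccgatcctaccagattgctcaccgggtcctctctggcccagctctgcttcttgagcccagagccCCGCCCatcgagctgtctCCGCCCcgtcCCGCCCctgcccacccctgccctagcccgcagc
Hspg2 (chr4:137468553-137468750, plus strand): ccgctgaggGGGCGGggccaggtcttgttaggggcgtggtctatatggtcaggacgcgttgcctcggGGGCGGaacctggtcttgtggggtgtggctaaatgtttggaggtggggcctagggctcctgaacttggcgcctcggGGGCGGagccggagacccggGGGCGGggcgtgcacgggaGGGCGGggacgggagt
Sparc (chr11:55420081-55420330, minus strand): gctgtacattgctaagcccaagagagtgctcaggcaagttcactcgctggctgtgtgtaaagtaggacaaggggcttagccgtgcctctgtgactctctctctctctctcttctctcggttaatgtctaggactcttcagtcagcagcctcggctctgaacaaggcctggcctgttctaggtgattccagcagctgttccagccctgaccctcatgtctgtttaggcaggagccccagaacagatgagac
Col4a1 and Col4a2 lie head to head, on opposite strands, with annotated starts at positions 11312826 and 11312805 of chromosome 8, so that their first 22 bases overlap. The window of Col4a1, not printed, held 1 CCAAT box, 140 bases before its start, and 0 GC boxes. A GC box was found in 5 of the 8 member windows (Col18a1 has 2 windows), against 32.7% of 32851 mouse promoter windows of the same length. A CCAAT box was also found in 5 of 8, against 33.85%, and a TATA box in 0, against 12.4%. Hspg2 held 5 GC boxes and no CCAAT box, and Sparc held none of the 3 motifs. The other window of Col18a1, not printed, also held none of them. These matches describe the letters only.

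The footprint libraries held 2060010 and 3472613 reads in KO cells and 3524739 and 8675267 in WT cells, and the input libraries 15931259 in KO and 17912908 in WT. The 10 genes had 131 to 16565 footprint reads and 411 to 20452 input reads per library, so counting error was small beside the changes of the genes that moved most. Footprints of the targeted gene, Mettl5, were 9.71 and 11.2 CPM (reads scaled to a common library total) in KO and 123 and 127 CPM in WT. All 10 fixed markers of naive stem cells were measured, and their summed footprints were 5318 and 5262 CPM in KO and 4731 and 4753 CPM in WT. Of these 6 rose, led by Dppa3 (0.49) and Klf4 (0.47), 1 fell (Tfcp2l1, -0.18) and 3 did neither in footprints. Klf2 (0.33) and Zfp42 (0.33) were among those that rose, and both lie on chromosome 8, where the median over 522 genes was 0.39. Over all genes, edgeR called 16% lower and 18.3% higher, and no marker list was tested against these shares. Of 8 formative markers 4 were analysed here and all 4 fell (log2 change of -1.49 for Dnmt3b, -1.06 for Foxd3, -0.82 for Zic2 and -0.56 for Otx2), with summed levels of 100.5 and 107 CPM in KO and 209 and 210.5 CPM in WT. Of 15 fibroblast markers 3 were analysed and fell (log2 change of -5.61 for Col1a1, -1.99 for Col5a1 and -1.62 for Fbln2). Their summed levels were 30.6 and 22.7 CPM in KO and 365 and 372 CPM in WT. None was at 0 in any footprint library, which holds for every gene analysed here. Of 6 trophoblast markers 3 were analysed, 1 of which rose (Tfap2c, 0.15), with summed levels of 214 and 229.5 CPM in KO and 199 and 212 CPM in WT. None of 15 markers of primitive and parietal endoderm, a tissue rich in laminin and type IV collagen, was analysed here. The part of other cell types in the results below was not tested. In bulk libraries, fewer cells of a type and less mRNA per cell cannot be told apart.

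Among the laminin chains, which form laminin-111 when Lama1, Lamb1 and Lamc1 assemble, the beta chain fell most. Lamb1 (ENSMUSG00000002900.16, chromosome 12, mm10 positions 31265146 to 31329644) had footprint levels of 135 and 136 CPM in KO and 435 and 457 CPM in WT. Both KO libraries lay far below both WT libraries, and KO footprints were 30.8% of WT (log2 change of -1.70 ± 0.06 SE, edgeR adjusted p = 2.92e-183). Lama1 (ENSMUSG00000032796.7, chromosome 17, 67697127 to 67822645), the alpha chain that carries the main receptor-binding domains, had 282.0 and 282.2 CPM in KO and 472 and 474 CPM in WT. The groups did not overlap, and footprints fell to 60.6% of WT (-0.72 ± 0.05, edgeR adjusted p = 1.37e-47). Lamc1 (ENSMUSG00000026478.14, chromosome 1, 153218922 to 153332786), the gamma chain shared by most laminins and the one that binds nidogen, had 1730.1 and 1631 CPM in KO and 1848 and 1909 CPM in WT. The genotypes did not overlap, but the fall was to 90.5% of WT (-0.14 ± 0.03, edgeR adjusted p = 1.46e-05), and it missed the threshold without the second KO library (adjusted p = 0.0527).

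All 3 collagen chains fell 2.60-fold or more. Col4a1 (ENSMUSG00000031502.11, chromosome 8, 11198423 to 11312889) and Col4a2 (ENSMUSG00000031503.13, chromosome 8, 11312805 to 11449287) encode the 2 chains of the most widespread type IV collagen. Col4a1 had 75.7 and 72.9 CPM of footprints in KO and 243 and 238 CPM in WT, a fall to 31.3% (log2 change of -1.67 ± 0.08, edgeR adjusted p = 1.33e-103). Col4a2 had 63.6 and 61.6 CPM in KO and 184 and 185 CPM in WT, a fall to 34.4% (-1.54 ± 0.08, edgeR adjusted p = 3.52e-71). In both genes the KO libraries lay well below the WT libraries, with little spread within a genotype. Reads from the 85 bases that the 2 gene models share could belong to either gene, since strand use in counting is not given in the sources used here. Col18a1 (ENSMUSG00000001435.15, chromosome 10, 77052178 to 77166530) encodes a collagen with heparan sulfate chains whose C-terminal fragment is endostatin. Its footprints were 137 and 153 CPM in KO, a difference of 10.9% that was the widest of any member within a genotype in relative terms, and 390.1 and 384 CPM in WT, a fall to 38.5% (-1.38 ± 0.06, edgeR adjusted p = 1.06e-118).

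The genes of linking and accessory proteins had smaller falls. Sparc (ENSMUSG00000018593.13, chromosome 11, 55394159 to 55420080), a secreted glycoprotein that binds type IV collagen, had 1280.1 and 1340.5 CPM of footprints in KO and 1886 and 1869 CPM in WT (log2 change of -0.49 ± 0.03, edgeR adjusted p = 1.62e-53). Nid1 (ENSMUSG00000005397.8, chromosome 13, 13437602 to 13512275), which bridges laminin and type IV collagen, had 625 and 607 CPM in KO and 823 and 785 CPM in WT (-0.36 ± 0.04, edgeR adjusted p = 4.18e-19). Hspg2 (ENSMUSG00000028763.17, chromosome 4, 137468751 to 137570630), the core protein of the proteoglycan perlecan, had 615 and 625 CPM in KO and 733 and 739 CPM in WT (-0.22 ± 0.04, edgeR adjusted p = 9.55e-08). KO footprints were thus 71.1% of WT for Sparc, 77.9% for Nid1 and 85.6% for Hspg2. Nid2 (ENSMUSG00000021806.4, chromosome 14, 19751257 to 19811787), the second nidogen, had 1139.8 and 1131 CPM in KO and 1274 and 1284 CPM in WT, or 90.1% of WT (-0.15 ± 0.03, edgeR adjusted p = 4.05e-05). In none of the 4 genes did the genotypes overlap.

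**Figure D1:**
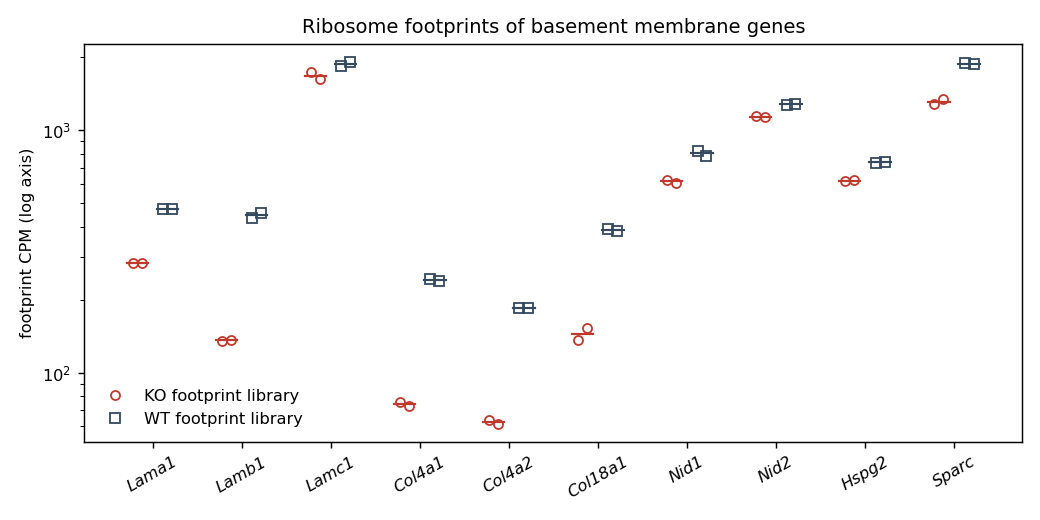
Ribosome footprints of the 10 genes in CPM on a log axis, with 1 point per library (2 KO as circles, 2 WT as squares) and a line at each genotype's mean. Both KO libraries lie below both WT libraries for every gene, with the widest gaps for Lamb1, Col4a1, Col4a2 and Col18a1.

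In all, 10 of 10 genes fell in footprints, where 16% of all 9093 genes were called lower and 18.3% higher. The median gene had 85 and 143 reads in the KO footprint libraries and 148 and 367 in the WT ones, fewer than any member. Falls as small as that of Lamc1 could pass for the members and be missed for a typical gene. The shares over all genes are thus not matched for depth, and the members were chosen with earlier results known. Both KO libraries lay below both WT libraries for 10 of 10, which held for 34.8% of all genes. A called fall of more than 2-fold was found for 4 of 10 (Lamb1, Col4a1, Col4a2 and Col18a1), against 1.18% of all genes. The median log2 change was -0.61 over the 10 genes and -0.000268 over all genes. Counted from the lowest change, Lamb1 stood at rank 15, Col4a1 at 17, Col4a2 at 28 and Col18a1 at 39 of 9093, whereas Lamc1 stood at 2886. Together the 10 genes held 6083 and 6039.8 CPM of footprints in KO and 8288 and 8324 CPM in WT.

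Input mRNA was lower in the KO library for all 10 genes, as it was for 46.0% of all genes. The 4 genes with the largest footprint falls had 40.0, 47.0, 25.8 and 111 CPM of input in KO (Lamb1, Col4a1, Col4a2 and Col18a1) and 135, 156, 93.2 and 384 CPM in WT. Their log2 ratios were -1.73 (95% counting interval of -1.86 to -1.61), -1.71 (-1.82 to -1.59), -1.81 (-1.97 to -1.66) and -1.78 (-1.85 to -1.70). They are the members with more than 2-fold less input in KO, 4 of 10 against 1.28% of all genes, and they took ranks 12 to 15 of 9093 from the lowest. Hspg2 followed with 177 CPM in KO and 331 CPM in WT (-0.90, -0.97 to -0.84). Sparc had 722 CPM in KO and 1142 CPM in WT (-0.66), and Lama1 179 CPM in KO and 266 CPM in WT (-0.57). Input of Nid1 was 376 CPM in KO and 436 CPM in WT (-0.21), that of Lamc1 760.1 CPM in KO and 836 CPM in WT (-0.14), and that of Nid2 652 CPM in KO and 714 CPM in WT (-0.13). With 1 input library per genotype these ratios have no replicate check. Over the 10 genes footprint change and input ratio had a Pearson r of 0.933. That value describes 10 genes measured in the same libraries, which are not independent points.

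**Figure D2:**
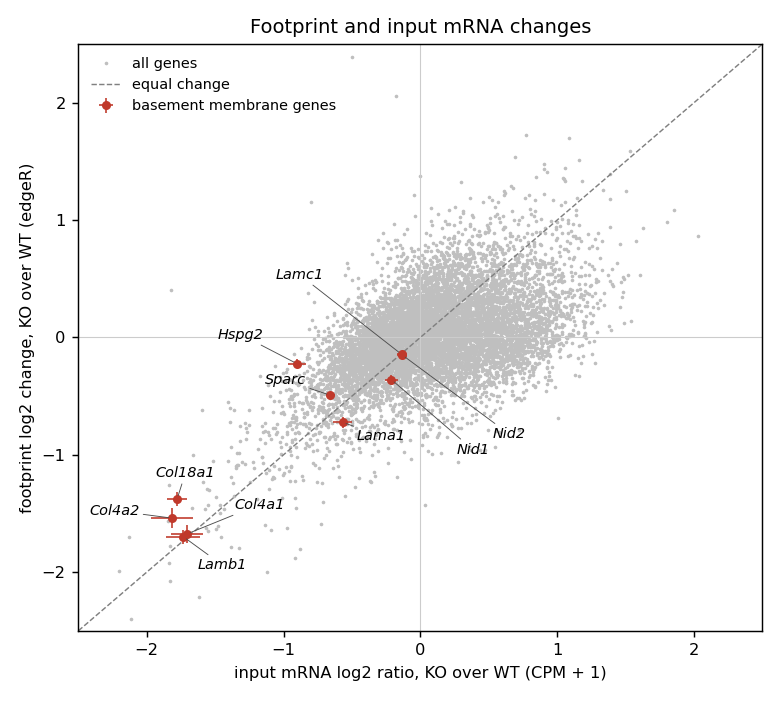
Footprint log2 change (edgeR, vertical axis) against input mRNA log2 ratio (CPM + 1, horizontal axis), KO over WT, for all genes in grey and the 10 basement membrane genes in red, with vertical bars for the standard error and horizontal bars for the 95% counting interval. Lamb1, Col4a1, Col4a2 and Col18a1 lie at the lower left near the line of equal change, Hspg2 lies above it, and 3 genes outside the axes are not drawn.

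Translational efficiency (TE), the ratio of footprint CPM to input CPM of a gene, rose for 2 of the 10 genes, fell for 0 and passed the threshold in neither direction for 8. Over all genes, limma called 4.88% higher and 12.8% lower. That was 444 genes higher and 1165 lower, and centring every library on its median gave 756 higher and 883 lower, with Sparc also called higher (0.23, limma adjusted p = 0.00281). Hspg2 had the largest change, with ratios of 3.48 and 3.54 in KO and 2.22 and 2.24 in WT (log2 change of 0.65 ± 0.07 SE, limma adjusted p = 5.32e-07). Its input was lower by 0.90 but its footprints by only 0.22 on the log2 scale. Col18a1 had ratios of 1.23 and 1.37 in KO and 1.02 and 1.00 in WT (0.36 ± 0.10, limma adjusted p = 0.0172), a call that was lost when the second WT library was left out (limma adjusted p = 0.0525). It was also lost with p-values from the authors' deposited table, adjusted by Benjamini-Hochberg (0.153). Both calls take single input libraries to vary as little as footprint libraries, and when each input library was given a further SD of 0.2 on the log2 scale limma called 0 of 10 (1 at an unadjusted p under 0.05), with adjusted p = 0.524 for Hspg2 and 0.867 for Col18a1.

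For Lamb1 and Col4a1, whose footprints fell most, TE changed by 0.02 ± 0.11 and 0.02 ± 0.13, and neither passed (limma adjusted p = 0.929 and 0.937). Lamb1 had TE ratios of 3.37 and 3.41 in KO and 3.22 and 3.38 in WT. Col4a1 had 1.61 and 1.55 in KO and 1.56 and 1.53 in WT. Ratios of Col4a2 were 2.46 and 2.39 in KO and 1.98 in both WT libraries, a change of 0.27 ± 0.15 that did not pass (limma adjusted p = 0.264). The values of Lama1 (-0.17 ± 0.08, limma adjusted p = 0.169), Nid1 (-0.17 ± 0.07, 0.0867) and Sparc (0.14 ± 0.05, 0.0593) did not pass either, nor did Lamc1 (-0.02 ± 0.05, 0.822) and Nid2 (-0.04 ± 0.05, 0.684). In the authors' deposited table the unadjusted p was 0.000602 for Hspg2, with mean TE of 3.51 in KO and 2.23 in WT. The same table gives an unadjusted p of 0.000418 for Lama1, with mean TE of 1.58 in KO and 1.78 in WT. Whether footprints and input were counted over the same part of each transcript was not stated in the sources used here, so ranks of TE between genes are given as a description. TE of all 10 genes lay above the median of all genes in KO (0.854) and in WT (0.890). Lamb1 was highest in WT, at percentile 91.4, and Col18a1 lowest, at percentile 56.5. In KO, Hspg2 and Lamb1 stood side by side at percentiles 95.6 and 95.3.

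**Figure D3:**
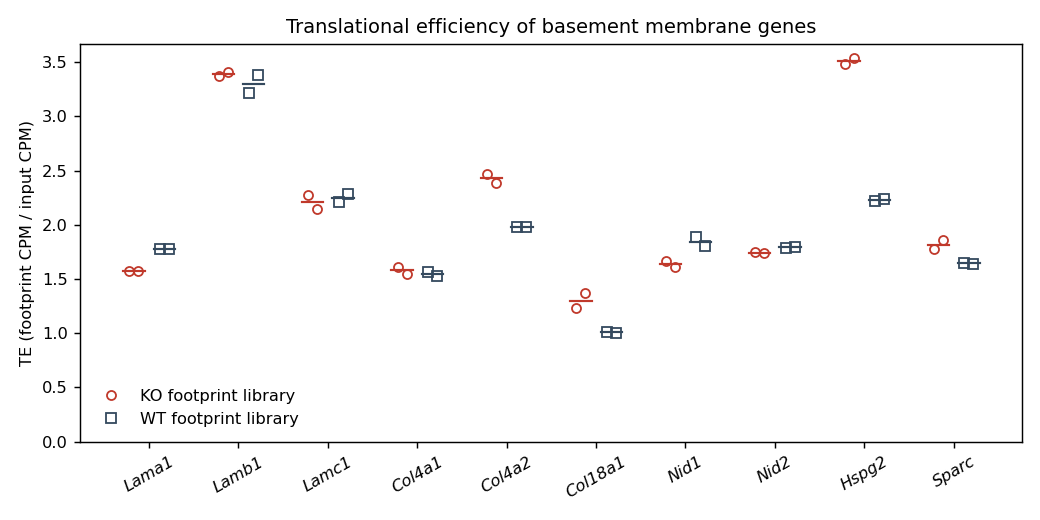
Translational efficiency (footprint CPM over input CPM) of the 10 genes, with 1 point per footprint library (KO circles, WT squares) and a line at the mean. The 2 ratios of a genotype share 1 input library, and Hspg2 shows the widest gap, with 3.48 and 3.54 in KO and 2.22 and 2.24 in WT.

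Within laminin, the footprint proportions of the chains stood apart between the genotypes. Coding lengths were not used here, so a ratio of CPM between 2 genes holds their difference in length, and it is compared between genotypes only. The footprint ratio of Lamb1 to Lamc1 was 0.0780 and 0.0837 in KO and 0.236 and 0.239 in WT, so the KO ratio was 34.0% of WT. That of Lama1 to Lamc1 was 0.163 and 0.173 in KO and 0.255 and 0.248 in WT (66.7%). Lama1 to Lamb1 went the other way, with 2.09 and 2.07 in KO and 1.08 and 1.04 in WT (196%). Type IV collagen and the nidogens showed smaller differences. Col4a1 to Col4a2 was 1.19 and 1.18 in KO and 1.32 and 1.29 in WT (90.9%), and Nid1 to Nid2 was 0.549 and 0.537 in KO and 0.646 and 0.612 in WT (86.3%). In input mRNA the KO ratio was 32.6% of WT for Lamb1 to Lamc1, 227% for Lama1 to Lamb1 and 109% for Col4a1 to Col4a2. Col18a1 to Hspg2, the 2 genes of heparan sulfate proteoglycans, had footprint ratios of 0.223 and 0.244 in KO and 0.532 and 0.519 in WT (44.4%). In each of these pairs the genotypes did not overlap, but the ratios were not tested and are given as a description. An exact test of 2 against 2 libraries cannot give a two-sided p below 0.333.

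**Figure D4:**
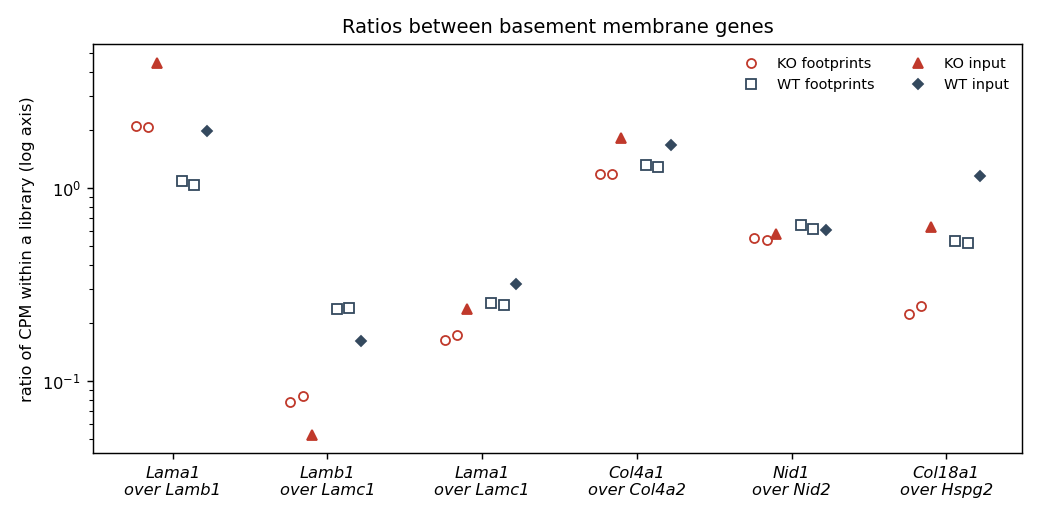
Ratio of CPM between 2 basement membrane genes within each library, on a log axis, for footprints (open circles KO, open squares WT) and input (filled triangles KO, filled diamonds WT). Lamb1 over Lamc1 is lower in KO than in WT in footprints and input, while Col4a1 over Col4a2 differs little.

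No measured neighbour of the 4 genes with the largest falls was called lower, against 16% of all genes. These neighbours are few, so this is a description. Col4a1 and Col4a2 had the lowest and second lowest footprint changes of 522 genes on chromosome 8, where the median log2 change was 0.39. Of 6 other measured genes within 500 kb of them, 4 rose and 0 fell, with changes of -0.13 to 0.67. Lamb1 had the lowest change of 313 genes on chromosome 12 (median of -0.01), and of its 5 neighbours 1 rose and 0 fell. Changes of these 5 were -0.30 to 0.31, with a median of -0.24. Col18a1 had the second lowest of 437 on chromosome 10 (median of 0.01), and 3 of its 8 neighbours rose and 0 fell. Changes of these 8 were -0.16 to 0.87. Sparc lies on chromosome 11, whose median was -0.19, and its change relative to that median was -0.31. The genes closest to the members' median pair of footprint change (-0.61) and input ratio (-0.78) were Scap, Top3b, Setd1b, Wdr1 and Ctgf. Their distances, over 4 footprint and 2 input libraries, were 0.0162 to 0.0307 on the log2 scale. Standard errors of their footprint changes were 0.07 to 0.23, larger than these distances, so other genes could be as close.

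Beside the list counts below, edgeR called 16% of all genes lower and 18.3% higher in footprints. DESeq2 called 636 genes lower and 772 higher of 8387 tested. No list was tested against these shares, so its counts are a description. Of other laminin chains, 3 of 4 described here fell and 1 rose in footprints by edgeR, with a median of -0.70. DESeq2 called 2 lower and 0 higher. The alpha chains Lama3 (11.8 ± 4.53 CPM in KO and 41.3 ± 1.43 CPM in WT, mean ± SD, n = 2 each), Lama5 and Lama4 changed by -1.88 ± 0.19, -0.74 ± 0.06 and -0.67 ± 0.27 (SE). The beta chain Lamb2 rose slightly, with 209 CPM in KO and 178 CPM in WT (0.25 ± 0.06), and its TE rose by 0.67 ± 0.12 (limma adjusted p = 0.000265). TE of Lama5 also rose, by 0.48. None of 7 other basement membrane collagens was analysed here. Of 18 other basement membrane proteins 5 were analysed, and 4 fell while agrin (Agrn, 0.01) passed in neither direction, with a median of -0.69, while DESeq2 called 2 lower. Those that edgeR called were fibulin 1 (Fbln1, -1.07 ± 0.11), Frem2 (-0.74), hemicentin 2 (Hmcn2, -0.69) and Tinagl1 (-0.67).

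Of 11 measured receptors for the matrix, edgeR called 5 lower, 1 higher and 5 in neither direction, with a median of -0.16. With DESeq2 only 1 was called lower and 1 higher. The syndecan Sdc3 (-0.95 ± 0.29), the collagen receptor Ddr1 (-0.67 ± 0.19) and the laminin-binding integrin alpha chain Itga3 (-0.64 ± 0.15) fell. Itgb1, the beta chain of most laminin and collagen receptors, rose by 0.47 ± 0.04, with 501 CPM of footprints in KO and 369 CPM in WT. Its input log2 ratio was 1.28, and its TE fell by 0.84 ± 0.09. Itgb1 lies on chromosome 8. TE of Itga6, its partner in a laminin receptor, fell by 0.52. Among 10 measured adaptors that join integrins to actin, 3 rose (Zyx at 0.97, Lims1 at 0.28 and Tln1 at 0.12) and 0 fell in footprints by edgeR, with a median of 0.04, and DESeq2 called 1 higher and 0 lower. The edgeR share called higher over all genes was 18.3%, so 3 of 10 is not read as a rise of the list. TE of Ptk2 (-0.90) and Fermt2 (-0.79) fell, and TE of Pxn (0.73) and Tln1 (0.56) rose. None of 9 measured genes of dystroglycan glycosylation, which makes the laminin-binding glycan, was called by edgeR. Of these 9, with a median of 0.05, 0 had an unadjusted p under 0.05. DESeq2 called 0 of the 8 for which it gave an adjusted p. Their standard errors were 0.12 to 0.28, against 0.03 to 0.08 for the members, so small changes could have been missed.

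Of 18 measured genes of collagen folding, cross-linking and export, 7 fell, 3 rose and 8 did neither by edgeR, with a median of -0.15, and DESeq2 called 4 lower and 2 higher. Falls were led by Serpinh1, the collagen chaperone Hsp47, at -0.87 ± 0.11 (44.6 CPM in KO and 80.0 CPM in WT), by P4ha2, a prolyl 4-hydroxylase subunit, at -0.82 ± 0.22 and by the prolyl 3-hydroxylase partner Crtap at -0.60. The lysyl hydroxylase gene Plod1 rose in footprints by 0.80 ± 0.08 and in TE by 0.50. TE of Mia3, which loads procollagen into export carriers, of its partner Ctage5 and of the coat gene Sec23a fell by 0.83, 0.66 and 0.82. Among 6 measured genes of matrix turnover, with a median of -0.22, 3 fell, the secreted protease gene Htra1 at -1.70 ± 0.08 and the cathepsin genes Ctsl and Ctsb at -0.17 and -0.16, and DESeq2 called 2 lower. In the synthesis of heparan sulfate, the chains carried by perlecan, 3 of 11 measured genes fell, 2 rose and 6 did neither by edgeR, with a median of 0.03, and DESeq2 called 1 lower and 2 higher. With 16% of all genes called lower and 18.3% higher by edgeR, these counts are not read as a change of the list. The extracellular sulfatase gene Sulf1 fell by 1.80 ± 0.28, from few reads (6.80 and 3.17 CPM in KO, 15.9 and 16.3 CPM in WT). Hs2st1 fell by 0.58 and Xylt2 by 0.50, whereas Sulf2, the second sulfatase gene, rose in footprints by 0.41 and in TE by 0.30. Extl3, a glycosyltransferase that starts the chain, had 41.3 ± 5.45 CPM of footprints in KO and 9.39 ± 2.04 CPM in WT (mean ± SD, n = 2 each, log2 change of 2.05 ± 0.18, edgeR adjusted p = 6.53e-27). Its input log2 ratio was -0.18, and its TE rose by 2.22 (limma adjusted p = 1.88e-06).

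**Figure D5:**
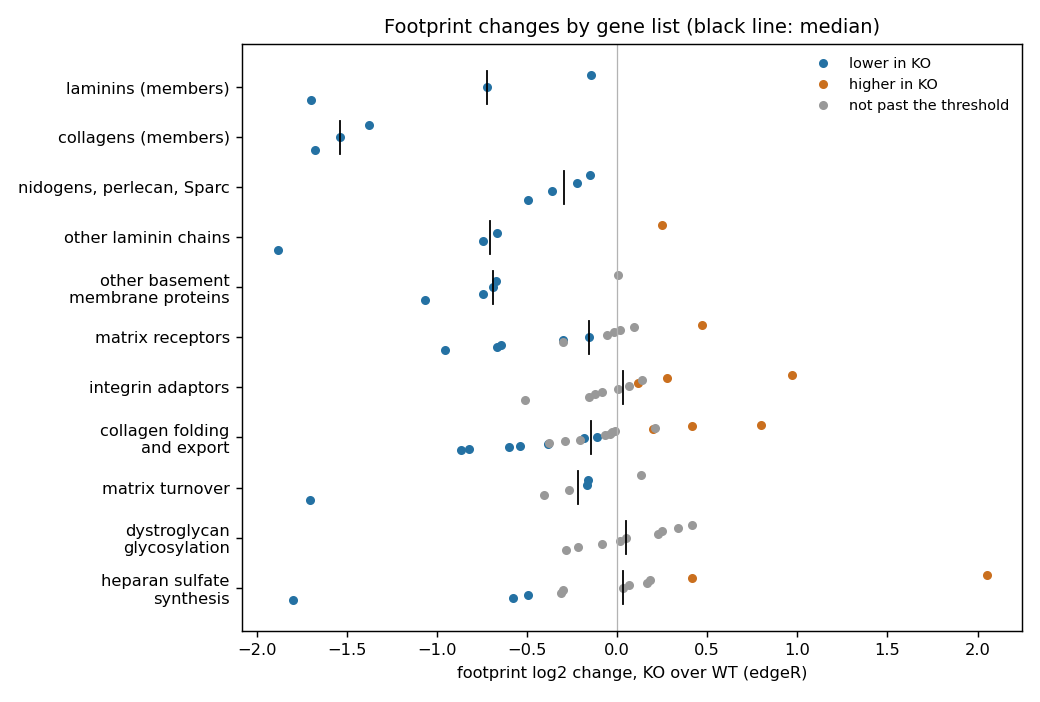
Footprint log2 change (edgeR, KO over WT) of the genes counted here in the members' 3 role groups and of 8 related gene lists, coloured by call, with a black line at each list's median. All members lie to the left of 0, while integrin adaptors and dystroglycan glycosylation genes centre near 0.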

How the data were processed

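The deposited table gives, per the file headers, footprint read counts and CPM per gene, input CPM, the authors' TE ratio with its log2 change and an unadjusted p-value. The submitters' processing notes name Bowtie and mm10, and the counter, annotation and gene filter were not stated in the sources used here. It holds 9093 genes, each with at least 11 reads in every footprint library. Another 2 per-sample columns, copies of the input, were not used.

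Footprint counts as deposited were tested with edgeR 4.0.16 (quasi-likelihood, TMM). TE was tested with limma 3.58.1 on log2(CPM + 1) as the interaction of genotype with library type, which understates changes of low genes and leaves 2 residual degrees of freedom, both from footprints. Values of p were adjusted by Benjamini-Hochberg over all 9093 genes, with a threshold of 0.05. Input log2 ratios of deposited CPM carry a 95% counting interval (exact Clopper-Pearson), which takes the lowest CPM as 1 read and covers counting error only. Lists are described by counts and medians, and 1 listed gene is not reported here. The members and lists were chosen with earlier results of these data known. Named are all members, up to 4 genes per list with the largest called footprint change, up to 4 with the largest called TE change, and the 5 genes nearest the members' medians. Klf2 and Zfp42 are also named, for their place on chromosome 8. Scripts were tested on simulated data. Alternatives were DESeq2 1.42.0, other normalization, pseudocounts and filters, an added input spread, the authors' p-values, a replicate block and leaving out each footprint library.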

Additional observations from a re-analysis of the deposited data

How the results depend on the processing

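Footprint calls of the 10 genes held in 99 of 100 combinations of gene and alternative. The exception was Lamc1 without the second KO library (-0.10, edgeR adjusted p = 0.0527), so leaving out 1 library gave 9 to 10 called genes. TE results held their direction and call in 95 of 110, and 2 called genes became 0 with an added input SD of 0.2 and 1 to 4 when a library was left out (4 without the first KO library, where Nid1 had limma adjusted p = 0.0250 and Sparc 0.00727, and 1 without the second WT library). TE changes near 0 turned sign for Lamb1 (-0.041 with log2(CPM + 5), -0.013 to 0.058 with a library left out), Col4a1 (-0.0043 with log2(CPM + 5), -0.0037 to 0.051 with a library left out), Lamc1 (0.068 with median centring, -0.066 to 0.019 with a library left out) and Nid2 (0.053 with median centring). With median centring Sparc passed (0.23, limma adjusted p = 0.00281), and with the authors' deposited p-values Lama1 passed (adjusted p = 0.0468). Median centring moved the input ratios of Lamc1, Nid1, Nid2 and Sparc to -0.20, -0.27, -0.19 and -0.72. The cause of these changes was not tested.

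DESeq2 called 18 of the 74 genes of the related lists where edgeR called 35. Over all genes edgeR called 1458 lower and 1668 higher, DESeq2 636 and 772, and edgeR without the second KO library 920 and 1015. For TE, 1165 lower and 444 higher became 0 and 4 with the added input SD, 107 and 36 with the authors' p-values, 883 and 756 with median centring, 823 and 279 without the first WT library, and 1476 and 696 or 1589 and 811 without the first or second KO library. With a replicate block, edgeR called 10 members and limma 2, with no change of call. Same-numbered libraries did not deviate together (r = -0.03 over 9093 genes). That value shows no large shared shift, and it cannot tell whether these libraries were prepared as pairs. The low-count filter removed 0 genes, so the fit without it repeats the values and is not among these combinations. A count model of input and chain ratios per coding length were not run, for lack of input counts and of lengths. With 1 input library per genotype, TE rests on a spread that was not measured for input.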
